A study of Drosophila melanogaster with 3 samples.

Results

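The genes described here are 41 protein-coding genes of Drosophila melanogaster that act in mitosis, at kinetochores and at centrosomes, of 13968 protein-coding genes on the chromosome arms. They were chosen by name, for the known role of each product, and all 41 names were found in the Ensembl annotation. For these genes the deposited regions bound by CG4617 were read near each transcription start site (TSS). The data come from chromatin immunoprecipitation followed by sequencing (ChIP-seq) in 1 group, CG4617-eGFP anti-GFP ChIP, with 3 replicates that the labels give as separate biosamples. The flies were a transgenic line in which CG4617 carries GFP at its C terminus. Embryos of both sexes, 0 to 24 hours old, were used whole, and the tagged protein was precipitated with an antibody to GFP after sonication to fragments of 200 to 800 bp. The labels name no promoter or cell type for the transgene, and they give no untagged or otherwise different group, so no groups were compared. A whole embryo mixes dividing and differentiated cells, and a region in these lists cannot be assigned to either.

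Entry into mitosis is driven by Cdk1 bound to mitotic cyclins, which Cdc25 phosphatases switch on and which Polo and Aurora kinases assist. Kinetochores, built on the centromeric histone, attach chromosomes to spindle microtubules, and checkpoint proteins hold back the anaphase promoting complex until attachment is complete. Cohesin holds sister chromatids together until separase cuts it, condensin compacts them, and centrosomes organise the spindle poles. In the fly embryo the earliest divisions run on products loaded by the mother, and later divisions depend on zygotic transcription, in particular of the Cdc25 gene stg.

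A promoter peak of a gene is a region of the thresholded list whose summit lies 500 bp or less from any TSS of that gene. Promoter peaks were found at 32 of the 41 genes, against 37.1% of all protein-coding genes. They were found at 10 of 10 centromere, kinetochore and checkpoint genes, 6 of 6 centrosome and centriole genes and 3 of 3 genes of the chromosomal passenger complex. Among the kinases, cyclins and Cdc25 phosphatases they were found at 5 of 8, in cohesin and condensin at 4 of 6, among anaphase genes at 3 of 5 and among spindle motors and microtubule proteins at 1 of 3. The peaks themselves were of middling strength. The strongest peak per gene had a median signal of 216.8, against 253.0 over the 5179 genes of the genome that have one. The authors deposited this signal without a stated scale, and here it only ranks regions within a list.

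The sequences below show the centre of the strongest promoter peak of 5 role groups, since these are the sites on which the counts rest. They come from the Release 6 genome (dm6) of RefSeq, read along the strand of the gene. Where the strongest peak of a group held more than 30 untranslated exon bases, as at Bub1 and Sas-4, the next strongest was taken. The spindle group has none for the same reason, with 61 such bases at Klp10A. In the passenger complex this reason applied to aurB and borr, with 61 and 41 such bases. It did not apply to Incenp, the strongest peak of that complex, for which no sequence is shown either. The aurA window is chr3R:11962936-11963019 on the plus strand, the Bub3 window chr3R:29675494-29675554 on the minus strand and the fzy window chr2L:16310782-16310842 on the plus strand. The SMC1 window is chr3R:24058215-24058313 and the Sas-6 window chr3R:29995215-29995275, both on the plus strand. The aurA, Bub3 and fzy windows lie outside annotated exons, while 27 bases of the SMC1 window and 17 of the Sas-6 window are untranslated exon. Capitals mark the nearest match to 1 of 10 motifs searched, which is TTTGAA or its complement at aurA and SMC1, TATAAA or its complement at Bub3 and fzy, and the complement of GGTCACAC at Sas-6.
aurA: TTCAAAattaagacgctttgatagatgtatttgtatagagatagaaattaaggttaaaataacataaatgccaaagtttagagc
Bub3: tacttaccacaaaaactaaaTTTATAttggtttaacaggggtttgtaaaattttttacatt
fzy: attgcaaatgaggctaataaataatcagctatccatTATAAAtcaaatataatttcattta
SMC1: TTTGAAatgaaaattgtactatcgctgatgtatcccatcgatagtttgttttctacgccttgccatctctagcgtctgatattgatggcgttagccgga
Sas-6: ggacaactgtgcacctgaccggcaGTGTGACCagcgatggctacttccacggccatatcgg

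The same 8 letters, TATCGATA, occur within 100 bp of the summit at 4 of the genes whose sequence can be shown. They are the DNA replication-related element (DRE), which in flies is bound by DREF and is known from promoters of replication and proliferation genes. This set was chosen after the matches were seen. Each line gives 40 bp around the element along the gene's strand, with the element in capitals. The windows are chr3L:11833566-11833605 for CycA, chr3L:5813125-5813164 for mad2 and chr3R:29675421-29675460 for Bub3, all on the minus strand, and chr3L:27136510-27136549 for vtd on the plus strand. Of these bases 13 at CycA, 1 at Bub3 and 25 at vtd are untranslated exon, and none at mad2. The centre of the element lay 7.5 bp upstream of the TSS at CycA, 51.5 bp upstream at mad2, 19.5 bp upstream at Bub3 and 4.5 bp downstream at vtd.
CycA: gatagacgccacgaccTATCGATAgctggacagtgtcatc
mad2: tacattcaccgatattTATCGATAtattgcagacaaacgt
Bub3: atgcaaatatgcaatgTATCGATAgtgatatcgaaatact
vtd: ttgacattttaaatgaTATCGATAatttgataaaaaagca

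For the build dm6 there are 5 lists. The replicate lists hold 30000, 17251 and 14368 regions for replicates 1, 2 and 3, the pooled list holds 20051 and the thresholded list 5558. Per the labels, the replicate and pooled lists feed a comparison of replicates by irreproducible discovery rate (IDR) and contain background regions, so a region in one of them is not by itself a peak. Signals ran from 10.9 to 554.5 in replicate 1, from 22.3 to 832.8 in replicate 2 and from 18.1 to 662.3 in replicate 3, and from 128.8 to 2038.1 in the thresholded list. The files used here hold no read numbers, so the depth is unknown. Below, a replicate's signal at a peak is that of its strongest region that holds the summit of the thresholded list. For genes without a promoter peak it is that of the strongest region whose own summit lies within 500 bp of a TSS, so the lists can refer to different sites there.

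Among the kinases, cyclins and Cdc25 phosphatases, the strongest promoter peak was that of aurA, the Aurora A kinase of centrosomes and spindle poles. Its summit lay 135 bp upstream of the TSS in the region chr3R:11962769-11963208, with a signal of 284.0 and rank 1626 of 5558. The replicate signals there were 101.9, 85.7 and 112.6, at ranks 2283, 2740 and 440 of the respective lists. A second, weaker peak with a signal of 190.9 lay 66 bp downstream of the TSS. The other 4 peaks were weaker than the median over all genes. CycA, a mitotic cyclin, had a signal of 174.4, polo, the Polo kinase, 171.3, Cdk1, the mitotic kinase itself, 163.3 and CycB3, a cyclin of late mitosis, 155.3. At CycA the replicate signals were 65.4, 84.3 and 21.6, and at CycB3 they were 79.7, 58.1 and 21.9. The third value of each ranked 9775 and 9504 among the 14368 regions of replicate 3, so both peaks were weak in that library. At polo the replicate signals were 104.8, 75.8 and 42.0 and at Cdk1 57.3, 66.2 and 56.4, all within the 5558 strongest regions of their list.

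The 3 members of this group without a promoter peak were the cyclin CycB and both Cdc25 genes, stg and twe. All 3 had a region in the pooled list that ranked below the thresholded set. At CycB the pooled signal was 108.7 at rank 6582, 5 bp upstream of the TSS, with replicate signals of 55.0, 36.3 and 18.4. At stg, which times the zygotic divisions, the pooled signal was 109.0 at rank 6568, 228 bp downstream of a TSS, with 62.1 in replicate 1, 49.1 in replicate 2 and no region in replicate 3. At twe, which acts mainly in the germline, the pooled signal was 96.2 at rank 7442, with 33.8 in replicate 1, 26.2 in replicate 2 and no region in replicate 3. The pooled summit lay 322 bp upstream of twe, past the TSS of the divergent gene CG4935 at 264 bp upstream. The replicate 3 list thus held a region at CycB only, and that one ranked 13921 of 14368. CycB and CycB3 differed in the call, at pooled ranks 6582 and 4529. With the thresholded list extended to the pooled list all 8 genes of the group had a region, as did 39 of the 41 members, against 52.6% of all genes.

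The 3 genes of the chromosomal passenger complex, which corrects faulty attachments and moves to the midzone in anaphase, all had promoter peaks. Incenp, its scaffold, had a signal of 234.7 with its summit 169 bp upstream of the TSS and a second peak of 144.3 that lay 64 bp downstream. The replicate signals at the stronger peak were 73.7, 71.0 and 94.1. The kinase gene aurB had a signal of 233.0 with replicate signals of 95.7, 105.1 and 42.2, but the summit lay exactly 500 bp upstream of its TSS and 58 bp from that of the divergent gene Stam. The aurB call therefore sits on the edge of the window, and it was lost with a window of 250 bp. Regions whose own summit lay within 500 bp of the aurB TSS had at most 95.7 in replicate 1 and 23.2 in replicate 2. Replicate 3 had none. The summit of borr, the fly Borealin, lay 10 bp downstream of its TSS with a signal of 146.4 and replicate signals of 73.2, 41.7 and 36.4. Both Aurora genes thus had peaks, of 284.0 at aurA and 233.0 at aurB, although only the aurA summit was nearest to the TSS of the kinase gene.

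All 10 genes of the centromere, kinetochore and checkpoint group had promoter peaks, with signals from 137.4 to 307.8. The strongest was at Bub1, a checkpoint kinase, in chr2L:5278444-5278658 with a signal of 307.8 and replicate signals of 108.8, 127.8 and 83.3. Its summit lay 342 bp upstream of the Bub1 TSS and 25 bp from the TSS of the divergent gene Nin. A second peak of 184.9 lay 73 bp downstream of an alternative TSS of Bub1. Bub3, the partner of Bub1 and BubR1, had a signal of 282.8 with 113.8 and 89.9 in replicates 1 and 2, and no region of replicate 3 held its summit. The same peak lies between Bub3 and Cap-D2, a condensin gene, whose TSSs are 230 bp apart. Mps1, the kinase at the head of the checkpoint, had a signal of 220.0, but its summit lay 389 bp upstream and 13 bp from the TSS of CG7523.

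The other 7 genes of the group had weaker peaks, most of them close to their own TSSs. The signal was 218.7 at cid, which encodes the centromeric histone, and 196.9 at Cenp-C, which binds that histone. It was 201.7 at Nuf2 and 147.4 at Ndc80, which form the microtubule-binding arm, and 137.4 at Spc105R, the platform for the checkpoint. The Spc105R peak ranked 5192 of 5558 and was the weakest of the 32. BubR1 and mad2, both inhibitors of the anaphase promoting complex, had 192.0 and 149.9. Apart from cid, at 200 bp, and BubR1, at 104 bp, their summits lay within 49 bp of the TSS. In replicate 3 the signals of 5 genes stood low, at 20.2 for Ndc80, 22.4 for Spc105R, 26.5 for mad2, 30.2 for Nuf2 and none for Bub3, all outside the 5558 strongest regions of that library. Spc105R and cid fell outside them in replicate 2, with signals of 36.3 and 49.4. When support from the strongest regions of every replicate was required, 4 of the 10 genes kept the call, namely Cenp-C, Bub1, BubR1 and Mps1. Of the 5179 protein-coding genes with a promoter peak, 3707 kept it, which is 26.5% of all genes, with or without a peak. Without replicate 3 the count in this group was 8, beside 32.1% of all genes. Without replicate 1 it was 4 beside 28.5%, and without replicate 2 it was 5 beside 28.2%. These shares too are over all genes, with or without a peak, so they are not shares of calls kept.

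Among the anaphase genes, fzy, the fly Cdc20 that activates the anaphase promoting complex, had the strongest peak. Its signal was 280.2, with 108.1, 104.7 and 85.9 in the 3 replicates, and the summit lay 144 bp upstream, between fzy and the divergent gene cni. pim, the fly securin, had 214.9 with its summit 379 bp upstream and nearer to Cand1. ida, a subunit of the complex, had 201.9 with its summit 70 bp downstream. At ida the replicate signals were 86.9, 79.2 and 24.6, the last of them at rank 7701. Neither fzr, the fly Cdh1 that activates the complex late in mitosis, nor thr, a separase gene, had a promoter peak. At fzr the pooled signal was 93.3 at rank 7678, 288 bp downstream of a TSS. The strongest regions of replicates 1, 2 and 3 had 45.1, 31.7 and 31.6, but those of replicates 2 and 3 lay upstream of the TSS, and near the pooled summit these lists had 27.8 and 24.3. At thr it was 124.7 at rank 5769, just below the end of the thresholded list, with 46.1 in replicate 1, 56.2 in replicate 2 and none in replicate 3. The activators fzy and fzr thus stood apart in the pooled list, at ranks 1678 and 7678.

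SMC1, a core subunit of cohesin, had the strongest peak of all members. The region chr3R:24058186-24058345 had a signal of 393.8 and rank 662, with its summit 4 bp upstream of the TSS. The replicate signals were 183.6, 167.1 and 71.1 at ranks 451, 489 and 1471. A second peak of 212.9 lay 205 bp downstream of the TSS. The other cohesin genes had weaker peaks, with 255.2 at vtd, the subunit that separase cuts, and 163.0 at SMC3. At vtd the replicate signals were 84.6, 110.1 and 74.3. The cohesin-related acetyltransferase gene san had no promoter peak. Its pooled region of 118.0 ranked 6080, and a thresholded summit with a signal of 163.4 lay 622 bp from its TSS. Of the condensin genes, glu, the fly SMC4, had a signal of 142.6 with 95.8 and 42.6 in replicates 1 and 2 and no region in replicate 3. barr, the condensin subunit that bridges the SMC pair, had no promoter peak. Its pooled signal was 78.4 at rank 9008, and its replicate 3 signal of 57.9 ranked 2210 while the 49.6 and 31.5 of replicates 1 and 2 ranked 6100 and 9624. Only replicate 3 had a region at barr among its 5558 strongest, and its summit lay downstream of the TSS while that of the replicate 1 region lay upstream, so these values come from different sites.

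The centrosome and centriole genes had a median signal of 299.8 over 6 genes, at median rank 1497.5, the highest of the role groups in the thresholded list. This order did not hold in every library. With the thresholded regions ordered by each replicate, the median position of the centrosome genes was 48.0%, 26.8% and 44.2% of the list, and that of the 3 anaphase genes with a peak was 37.8%, 39.2% and 41.1%. Sas-4 and Sas-6, which build the centriole wall and cartwheel, both had a signal of 338.3. At Sas-6 the replicate signals were 134.7, 129.2 and 65.5. At Sas-4 the region chr3R:7150787-7150976 held 102.2 in replicate 1, 187.0 in replicate 2 and none in replicate 3, and a second peak of 224.2 lay nearer, 246 bp upstream. By own summit within 500 bp, the strongest replicate 1 region had 42.6 at rank 7046. That of replicate 3 had 74.2 at rank 1338, 185 bp upstream. SAK, the Polo-like kinase that starts centriole duplication, had 332.6, with 86.7, 137.1 and 96.2 in the replicates. ana2, the partner of Sas-6, had 267.0, and cnn, the scaffold of the material around centrioles, had 245.7 and a second peak of 159.4 at another TSS. The replicate signals at the stronger cnn peak were 51.3, 111.7 and 68.9. The first of them ranked 5871, outside the 5558 strongest regions of replicate 1, and cnn lost its call when support in all 3 replicates was required. Cp110, which caps centrioles, was the weakest at 150.4, with 20.5 in replicate 3 at rank 10981. All 6 summits lay upstream of the TSS, at a median distance of 226.5 bp, and at 5 genes another gene's TSS was nearer. The exception was cnn. When each peak was given only to the gene with the nearest TSS, 1 of the 6 genes kept its call. Of the 5179 protein-coding genes with a promoter peak, 3952 kept theirs, which is 28.3% of all genes, with or without a peak. The group's signal thus belongs mostly to regions that neighbours share.

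Of the 3 spindle genes, Klp10A, a kinesin that depolymerises microtubules, had a peak of 218.6 with replicate signals of 81.1, 71.9 and 78.4, 166 bp upstream of an alternative TSS. With only the most upstream TSS per gene it had none. asp, a spindle pole protein, had no region in the pooled list within 500 bp, although each replicate list held one, with signals of 27.2, 47.2 and 44.4. Klp61F, a kinesin that slides antiparallel microtubules, had no region in any of the lists within 500 bp, and the nearest thresholded summit, with a signal of 471.1, lay 2112 bp away. It was the only member with none in every list. No thresholded summit lay inside the body of a member outside the promoter windows.

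**Figure D1:**
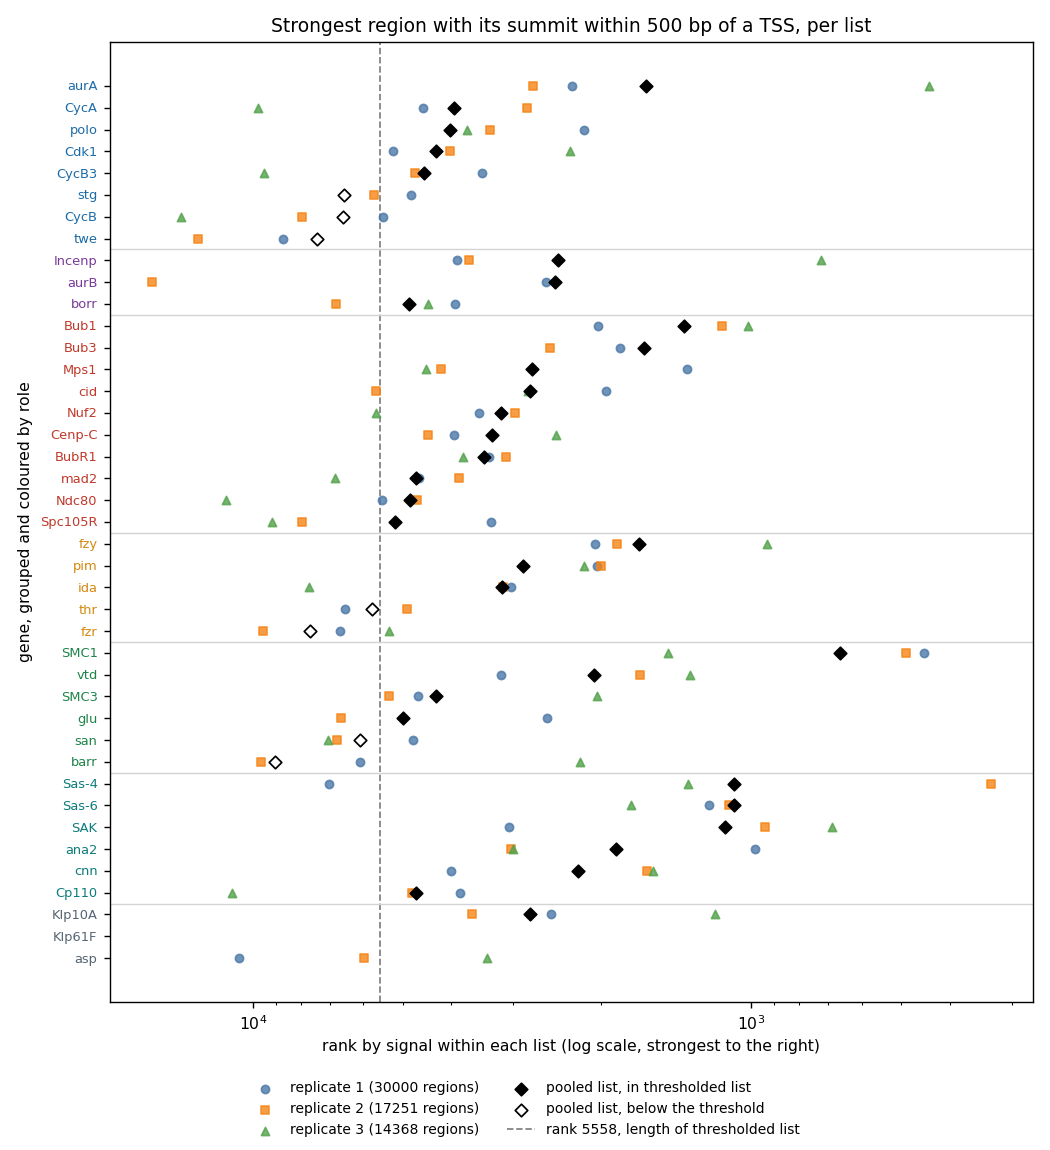
Rank by signal of the strongest region whose own summit lies within 500 bp of a TSS, for each of the 41 genes (rows, grouped and coloured by role) on a log axis with the strongest regions to the right. Diamonds show the pooled list, filled where the region is in the thresholded list of 5558; circles, squares and triangles show replicates 1, 2 and 3. SMC1 stands furthest right of the filled diamonds at rank 662, Klp61F has no mark, and several triangles of kinetochore genes lie left of rank 5558.

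In each replicate list most members had a region. Replicate 1 held one within 500 bp at 40 members against 59.2% of all genes, replicate 2 at 40 against 50.2% and replicate 3 at 34 against 44.6%. When each replicate list was limited to its 5558 strongest regions, the counts were 34 against 37.7%, 28 against 36.4% and 24 against 33.7%. The replicates thus differed by 10 genes, and replicate 3 held the fewest. In the thresholded list, the summit of the strongest peak lay in a region of all 3 replicate lists at 29 of the 32 genes and of 2 lists at Bub3, glu and Sas-4. It lay in the strongest regions of all 3 at 18 genes, against 26.5% of all genes, of 2 at 12 genes and of 1 at Spc105R and glu. Among genes with a promoter peak these 18 are 56.2% of 32, against 70.5% of 5179. Without replicate 3 the count was 28 against 32.1% of all genes, without replicate 1 it was 20 against 28.5% and without replicate 2 it was 20 against 28.2%.

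The members' peaks ranked lower than those of other genes in every replicate. With the thresholded regions ordered by the signal of each replicate, the members' median position was 55.4% of the list in replicate 1, 59.4% in replicate 2 and 59.5% in replicate 3, where 0% is the strongest. Over all genes with a promoter peak it was 38.6%, 42.9% and 44.8%. The mean was 58.1% ± 2.3 (SD, n = 3) for the members and 42.1% ± 3.2 (SD, n = 3) for all genes, and the difference was 16.8, 16.5 and 14.6 points in replicates 1, 2 and 3. The difference had the same sign in all 3 libraries and was larger than the spread between them. That spread comes from ordering the same regions by each library, so it does not measure the variation among the genes. In the stronger 2779 regions of the thresholded list 16 members had a promoter peak, against 23.5% of all genes. That is 16 of the 32 with a peak, against 63.4% of all genes with one. With the list cut into 5 equal bins by rank, the strongest bin held 3 of the 32, namely SMC1, Sas-4 and Sas-6, against 28.8% of all genes with a peak. The weakest bin held 7 of 32 against 11.9%. The peaks are therefore frequent among these genes without being strong.

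**Figure D2:**
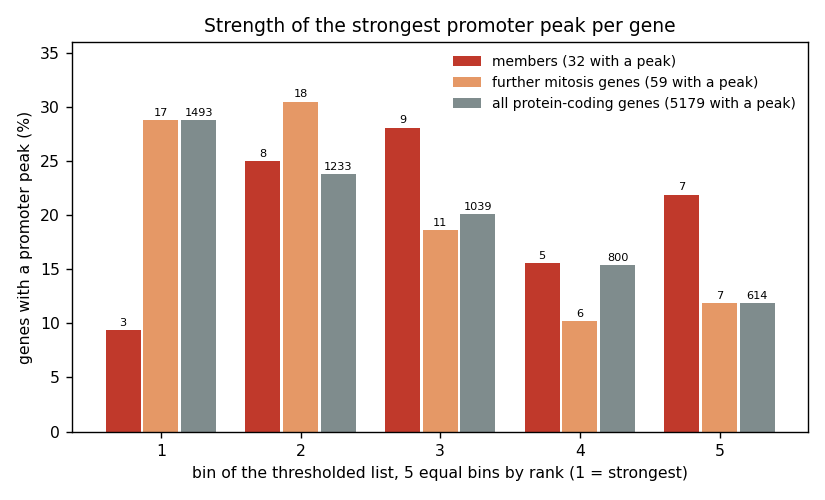
Share of genes with a promoter peak (vertical axis, percent) whose strongest peak falls in each of 5 equal bins of the thresholded list (horizontal axis, 1 is the strongest), for 32 members, 59 further mitosis genes and all 5179 genes with a peak; numbers above bars are genes. The members have 9.4% in the strongest bin against 28.8% of all genes.

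The start regions of these genes are crowded. A divergent neighbour, meaning a protein-coding gene on the other strand whose TSS lies at most 1000 bp upstream, was present at 63.4% of members and 36.2% of all genes. Among the 26 members with such a neighbour 21 had a promoter peak, against 66.4% of the 5052 genes of this kind. Among the 15 without one 11 had a peak, against 20.5% of 8916 genes. The gap between the members and all genes was thus 73.3% against 20.5% at lone start sites and 80.8% against 66.4% at divergent ones. These 11 lone genes are CycA, CycB3, polo, borr, Cenp-C, Spc105R, Nuf2, mad2, BubR1, ida and vtd. Their peaks were close to the TSS and weak, with a median distance of 49.0 bp and a median signal of 174.4, against 242.1 at all lone genes. At the 21 divergent members the medians were 169.0 bp and 234.7. Support in the strongest regions of replicate 3 was found at 5 of the 11 lone members and 16 of the 21 divergent ones, against 76.9% and 83.1% of all genes of each kind. In replicate 1 it was found at 11 of 11 and 20 of 21, against 90.0% and 93.3%, and in replicate 2 at 9 of 11 and 19 of 21, against 91.6% and 92.8%. Peaks outside the strongest regions of replicate 3 were thus those of 6 of the 11 lone members and 5 of the 21 divergent ones.

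**Figure D3:**
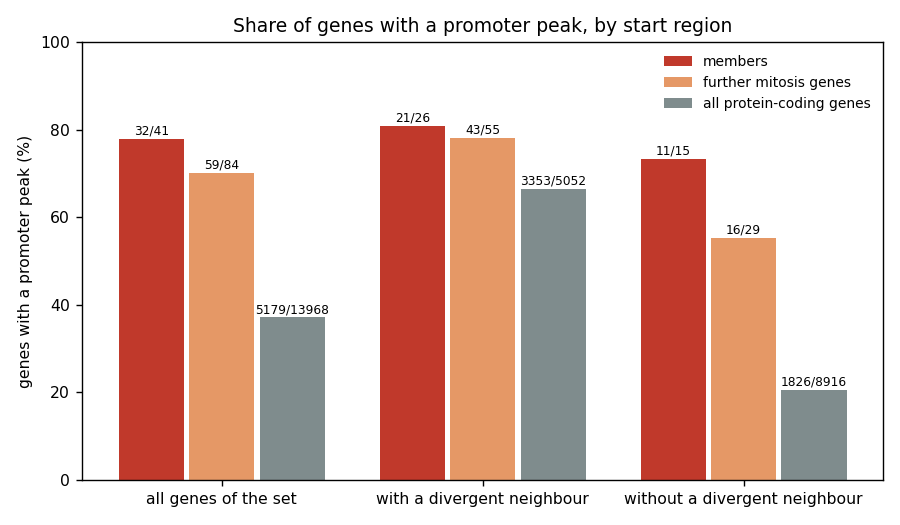
Share of genes with a promoter peak (vertical axis, percent) among the members, the further mitosis genes and all protein-coding genes, for whole sets and by whether a divergent neighbour is present; labels give genes with a peak over all genes of the set. At start sites without a divergent neighbour the shares are 11 of 15 members and 1826 of 8916 genes.

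Summits lay upstream of the TSS at 27 of the 32 genes and downstream at 5, against 3079 and 2081 of the 5179 genes with a peak. The members had a median distance of 114.5 bp, against 91.0 bp over all genes. The strongest peak was shared with another gene, whose TSS lay within 500 bp of the same summit, at 18 of 32 members or 56.2%, and at 55.5% of all genes with a peak. The gene's own TSS was the nearest to its strongest summit at 20 members or 62.5%, against 71.4% of all genes. At the other 12 a neighbour was nearer. They are aurB, cid, Bub1, Mps1, fzy, pim, SMC3, Sas-4, Sas-6, ana2, SAK and Cp110. Counting for each peak only the gene with the nearest TSS left 21 members, among them Bub1 through its second peak, against 28.3% of all genes. A window of 250 bp gave 27 members against 32.9%, losing aurB, Mps1, pim, SAK and Cp110, and one of 1000 bp gave 33 against 40.3%, adding san. At these shared sites the lists do not tell which of the neighbouring genes a region belongs to.

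**Figure D4:**
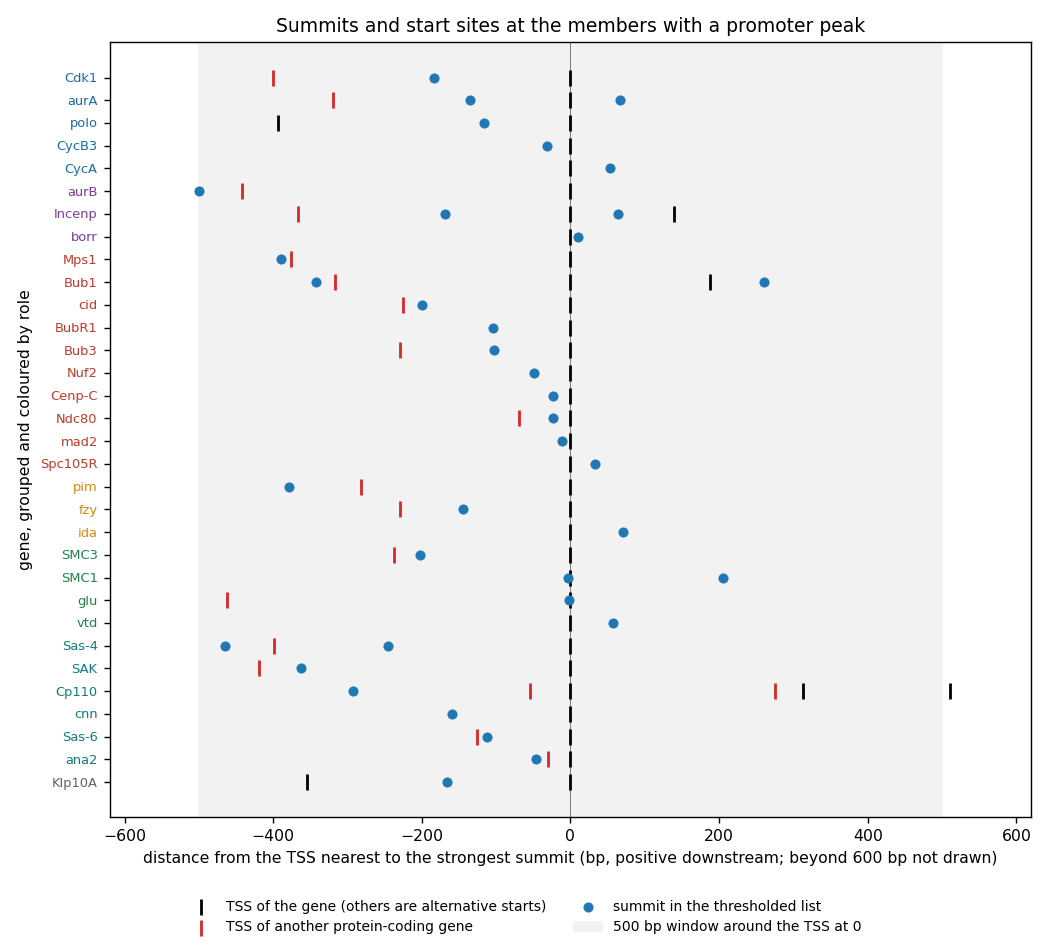
Position of thresholded summits (blue points), of the gene's own TSSs (black bars) and of TSSs of other protein-coding genes (red bars) for the 32 genes with a promoter peak, in bp from the own TSS nearest to the strongest summit, positive downstream. Points of aurB, Mps1 and SAK lie next to red bars and far from 0, while those of borr and mad2 and the stronger of the pair at SMC1 lie within 12 bp of 0.

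The 10 motifs were counted on both strands within 100 bp of the summit, and overlapping matches were counted for each motif. The DRE, TATCGATA, was found at the strongest peak of 6 of 32 members or 18.8%, and at 9.2% of all 4532 promoter peaks. The 4532 also include weaker second peaks of a gene, so the sides are not chosen alike. This holds for every motif share at summits and for the GC content below. The 6 genes were CycA, mad2, BubR1, Bub3, vtd and ana2, and the centre of the element lay between 51.5 bp upstream and 4.5 bp downstream of the TSS at all of them. It was at none of the 9 start sites of members without a promoter peak, and at 3.4% of such sites over all genes, so a count of 0 says little. Within 50 bp of the summit the shares were 6.2% against 5.1%. Around the TSS of genes with a promoter peak they were 18.8% against 15.4%. TTTGAA, the letters of the cell cycle homology region (CHR) known from mammalian promoters of mitotic genes, was found at 14 peaks or 43.8%, against 23.0%. Within 50 bp it was found at 6 peaks, or 18.8% against 11.4%. Around the most upstream TSS of all 41 members, with or without a peak, it was found at 19 genes or 46.3%, against 26.7% of all genes. The members' peaks had a median GC content of 39.1%, against 40.8%, and the part of base composition in the TTTGAA and TATAAA counts was not tested.

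TATAAA was found at 11 peaks or 34.4%, against 24.0%, but its matches lay from 500.5 bp upstream to 57.5 bp downstream of the member's TSS. Within 50 bp of the summit it was found at 9 peaks, or 28.1% against 11.6%. Around the most upstream TSS the order was reversed. The shares there were 21.9% against 24.8% for genes with a promoter peak and 24.4% against 29.2% for all genes. GAGAG, a core of GAGA factor sites, was found at 6 peaks or 18.8%, against 18.5%. The core of Motif 1, GGTCACAC, bound in flies by M1BP, was found at 3 peaks, CycB3, glu and Sas-6, or 9.4% against 10.7%. Around the most upstream TSS it was found at 8 of 41 members or 19.5%, against 6.7% of all genes, and these include thr and Klp61F, which have no promoter peak. Among genes with a promoter peak the shares at that TSS were 18.8% of members and 15.1% of all such genes. The E-box CAGCTG was found at 3 peaks or 9.4%, against 15.3%. CACGTG, an E-box, and CAGGTAG, the Zelda site of early embryonic enhancers, were found at none, against 3.3% and 0.8%. Of the E2F sites TTTCGCGC was found at SMC1 and TTTGGCGC at none, against 0.9% and 1.3%. With counts this small, and with peaks shared between neighbours, these shares describe the sites and carry no test.

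**Figure D5:**
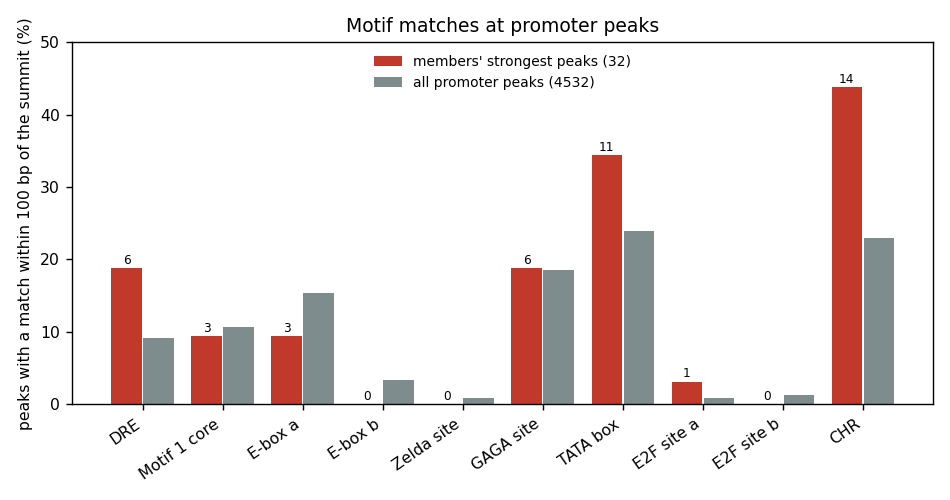
Share of promoter peaks with a motif match within 100 bp of the summit (vertical axis, percent), for the strongest peaks of 32 members and for all 4532 promoter peaks; numbers give member peaks with a match. E-box a and b are CAGCTG and CACGTG, and E2F site a and b are TTTCGCGC and TTTGGCGC. The CHR letters are at 14 member peaks, the highest of the 10 counts.

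A further 84 genes of the same processes, such as subunits of the anaphase promoting complex, cohesin regulators, gamma-tubulin ring proteins and augmin, were read the same way. Promoter peaks were found at 59 of them or 70.2%, against 37.1% of all protein-coding genes. Their median signal of 279.8 lay above the 216.8 of the 41 genes and the 253.0 over all genes with a peak. The strongest were at dmt, a protector of cohesin, with 720.9 at rank 81, pds5, a cohesin regulator, with 658.5 at rank 108 and Cap-H2, a condensin II subunit, with 612.0 at rank 146. All 3 peaks are shared with a divergent neighbour, and the summit lay nearer to trbd than to dmt and nearer to MED7 than to Cap-H2. Wee1, the kinase that opposes the Cdc25 phosphatases, had 321.5 at rank 1231, and Myt1, the other such kinase, had 130.0 at rank 5502. A divergent neighbour was present at 55 of the 84 further genes, and 43 of these had a peak, or 78.2% against 66.4% of all such genes. Among the 29 without one 16 had a peak, or 55.2% against 20.5%. Of the 16 further genes at lone start sites that had a peak, 11 had support in the strongest regions of all 3 replicates, or 68.8%, against 4 of the 11 lone members and 65.5% of all lone genes with a peak. Both sets thus had promoter peaks more often than all protein-coding genes, and the further genes had them at higher ranks.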

How the data were processed

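The lists of regions, with a signal per region, were used as the authors deposited them. Per the labels, a replicate list rests on 1 library and a control alignment, the pooled list on all 3 libraries with that control, and the thresholded list on IDR. No aligner, peak caller or IDR threshold is given in the sources used here. The dm6 lists were used, and those for dm3 were not. TSSs of protein-coding genes came from Ensembl release 115 (19275 positions), sequence from RefSeq. Regions were joined to TSSs by summit with Python 3.11.15, numpy 2.4.6 and pandas 2.3.3, tested on simulated data. Of 85 further genes 84 were matched by symbol or synonym; SA matched more than 1 gene and was left out. In the thresholded list 37 intervals occur more than once. Members and gene lists were chosen with earlier results of these data known, so counts are descriptions without tests. All 41 members are named; those given in full are the strongest peak of each role, members with 2 peaks or none, and paralogs; of the further genes, the 3 strongest and paralogs. Wee1 and Myt1 were named after their values were seen. Alternatives were other windows, TSS choices, subsets of the list, replicates left out, role groups and motif windows.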

Additional observations from a re-analysis of the deposited data

How the results depend on the processing

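The count of 32 members with a promoter peak fell to 16 in the stronger regions, to 18 with support in all 3 replicates, to between 20 and 28 with 1 replicate left out and to 21 with nearest genes only; it moved by less than 1.5 times under the other settings. For kinases, cyclins and Cdc25 phosphatases the count of 5 of 8 became 1 in the stronger regions and 8 in the pooled list. It was 3 with support in all 3 replicates and 3 to 5 with 1 replicate left out. When aurB, Bub1 and Mps1, which all had a peak, were added to the group, it was 8 of 11. For kinetochore genes the count of 10 became 4 in the stronger regions, 4 with support in all 3 replicates and 4 to 8 with 1 left out. For anaphase genes 3 became 1 in the stronger regions, 5 in the pooled list and 1 with nearest genes only, and for cohesin and condensin 4 became 2 in the stronger regions. For centrosome genes 6 became 3 with support in all 3 replicates, 3 to 6 with 1 left out and 1 with nearest genes only. The single spindle gene became 0 with the most upstream TSS. Over all genes the share was 37.1% in the main setting, 23.5% in the stronger regions, 52.6% in the pooled list and 35.3% with the most upstream TSS. It was 26.5% with support in all 3 replicates, 28.2% to 32.1% with 1 left out and 28.3% with nearest genes only. The median signal of 216.8 became 194.4 with the peak nearest to the TSS, 233.8 with support in all 3 replicates and 216.8 to 233.8 with 1 left out. Within 50 bp of summits DRE matches fell to 2, or 6.2% against 5.1% of all promoter peaks, and GAGAG to 2, or 6.2% against 8.6%. TTTCGCGC fell to 0, against 0.3%, and TTTGAA to 6, or 18.8% against 11.4%. Within 150 bp CAGCTG rose to 7, or 21.9% against 21.2%. Leaving out a replicate here means support in the strongest regions of the other 2, since the thresholded list could not be remade, so it is stricter than the list itself. No paired analysis was possible because there is only 1 group. Limits are the unknown depth, the unstated scale, 1 mixed tissue and neighbours that share a peak.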

Other observations

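Some paralogs among the further genes differed in their calls. Nnf1a had a promoter peak of 211.8 and Nnf1b had none, although both encode kinetochore proteins. The Nnf1a summit lay 62 bp from the TSS of the divergent gene HnRNP-K, nearer than to that of Nnf1a. The gamma-tubulin genes, gammaTub23C and gammaTub37C, had similar signals of 356.3 and 357.3. The gammaTub37C summit, however, lay 348 bp upstream of its TSS and 31 bp from that of the divergent gene pigeon. The gammaTub23C summit lay 134 bp upstream and was nearest to its own TSS. No promoter peak was found at fzr2, a relative of fzr, at aust, a relative of borr, or at cana, a relative of cmet, while cmet itself had a weak one of 132.5.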
